A study of Mus musculus with 8 samples.

Results

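The mitochondrial transfer RNAs mt-Ts1, mt-Td, mt-Tk, mt-Tg and mt-Tr are encoded between the 3′ end of mt-Co1 and the start of mt-Nd4l on mouse mtDNA. They were chosen by name and map position, and they make up 5 of the 22 mitochondrial tRNAs, 5 of 36 mitochondrial features and 5 of 54531 features in the deposited small RNA-seq table. The libraries came from hearts of C57BL/6 mice aged 24 weeks, with 4 from *Rnaseh1* knockout mice (H1-/- in the labels) and 4 from wild-type mice (+/+ in the labels). In the knockout, Cre recombinase expressed under the muscle creatine kinase promoter (Ckmm-cre) removes a floxed exon of *Rnaseh1* in heart and skeletal muscle, so heart cells of other types are not targeted. The study's text describes its heart controls as carrying loxP alleles without Cre, and it names mitochondria purified from heart as the RNA source, whereas the labels give heart tissue. RNase H1 degrades RNA hybridised to DNA, and the comparison asked how its loss alters short transcripts of mtDNA.

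Mammalian mtDNA is transcribed from both strands as long precursors in which tRNAs lie between many of the mRNAs and rRNAs. The tRNAs are cut out at their 5′ ends by the mitochondrial RNase P and at their 3′ ends by ELAC2, a CCA tail is added, and release of the tRNAs also frees the flanking mRNAs. Each mature tRNA then carries its amino acid to the mitochondrial ribosome, which makes core subunits of the respiratory chain and ATP synthase. Heart muscle depends heavily on these complexes.

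The 5 tRNA sequences are shown because they are the counted features themselves and differ in strand, base composition and decoding. They come from the GENCODE release M21 transcripts for GRCm38, are given 5′ to 3′ without the CCA tail, and have the same start and end in the deposited table and in GENCODE. Capitals mark the anticodon, which a script found in each as the middle of a loop of 7 bases between 5 paired stem bases.
mt-Ts1: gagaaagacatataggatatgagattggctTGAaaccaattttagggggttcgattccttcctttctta
mt-Td: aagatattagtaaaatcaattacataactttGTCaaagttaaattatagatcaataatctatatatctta
mt-Tk: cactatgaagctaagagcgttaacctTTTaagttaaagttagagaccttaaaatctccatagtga
mt-Tg: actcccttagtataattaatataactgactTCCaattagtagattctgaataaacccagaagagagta
mt-Tr: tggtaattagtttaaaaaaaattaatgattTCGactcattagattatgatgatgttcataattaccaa

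mt-Ts1 (chrMT:6870-6938, minus strand, 69 bases) is a serine tRNA with the anticodon UGA and is read from the light-strand promoter. The other 4 are on the plus strand and are read from the heavy-strand promoter. mt-Td (chrMT:6942-7011, 70 bases, anticodon GUC) carries aspartate, mt-Tk (chrMT:7700-7764, 65 bases, anticodon UUU) lysine, mt-Tg (chrMT:9391-9458, 68 bases, anticodon UCC) glycine and mt-Tr (chrMT:9808-9875, 68 bases, anticodon UCG) arginine. The GC content was 17.1% in mt-Td, the lowest of the 22 mitochondrial tRNAs, and 22.1% in mt-Tr, the next lowest. It was 30.9% in mt-Tg, 33.8% in mt-Tk and 37.7% in mt-Ts1, beside a median of 34.1% over the 22.

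The values were deposited as read counts divided by a size factor per library, given here as normalised reads. For every feature the table gives the authors' mean over all 8 libraries, and for 23 mitochondrial features (the 22 tRNAs and 7S RNA) it also gives the authors' average and standard error per genotype. The 8 columns of single libraries carry names that match no genotype or sample, so they were not used and no value per library is shown. The differences below were set against the authors' standard errors without a test. The file does not say how those standard errors were computed. The means summed to 822885 normalised reads over all features, of which mitochondrial features held 4.25% and the 5 tRNAs 0.227%. The depth of single libraries is unknown here. *Rnaseh1* itself was listed at 0, so the genotype could not be checked on it, and all 8 cardiomyocyte marker genes had means above 0 (36.8 to 662).

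The level of the 5 tRNAs differed widely within this short stretch of mtDNA. Over all libraries, mt-Tg had an authors' mean of 1795 normalised reads, which placed it 40 from the top among the 14456 features with a mean above 0. mt-Tk had a mean of 41.5, mt-Ts1 of 21.7, mt-Tr of 4.11 and mt-Td of 3.498. Only mt-Tg, mt-Tk and mt-Ts1 reached a mean of 10, as did 444 features in the whole table. Scaled by length, mt-Tg had 26.4 normalised reads per base, 41.3 times the 0.638 of mt-Tk and 528 times the 0.04998 of mt-Td. mt-Ts1 had 0.314 and mt-Tr 0.0604 normalised reads per base. Among the 22 mitochondrial tRNAs per base, mt-Tg ranked 4, mt-Tk 15, mt-Ts1 18, mt-Tr 21 and mt-Td 22, and the order was the same without the division by length. By genotype, the ranks in knockout hearts were 3 for mt-Tg, 14 for mt-Ts1, 15 for mt-Tk, 20 for mt-Tr and 22 for mt-Td, and in wild-type hearts 4 for mt-Tg, 15 for mt-Tk, 19 for mt-Ts1, 21 for mt-Tr and 22 for mt-Td. By reads, mt-Tg was thus among the highest mitochondrial tRNAs, and mt-Td had the lowest average in both genotypes. The averages of mt-Td and mt-Tr lay within error of each other. How closely reads follow the amounts of different tRNAs was not tested, so these ranks and ratios describe reads.

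Each tRNA was next set beside the mRNA features that flank it, again per base and over all libraries, since the averages by genotype do not cover mRNAs. Short RNA was sequenced, so the ratios compare reads and do not give the amount of a tRNA relative to whole mRNAs. In the authors' annotation no base separates mt-Td, mt-Tk, mt-Tg or mt-Tr from its flanking mRNA features, which were between 0.226 (mt-Nd4l_4, the joined mt-Nd4l and mt-Nd4) and 0.564 (mt-Co2) normalised reads per base. mt-Tg stood 104 times above mt-Co3 (0.255), a subunit of cytochrome c oxidase, and 70.3 times above mt-Nd3 (0.376), a subunit of complex I. mt-Tk stood close to mt-Co2, at 1.13 times its level, and at 2.66 times that of mt-Atp8_6 (0.240), the joined ATP synthase subunits. In contrast, mt-Td was at 0.111 times the level of mt-Co1 (0.450) and 0.0886 times that of mt-Co2. mt-Tr was likewise below both neighbours, at 0.161 times mt-Nd3 and 0.267 times mt-Nd4l_4. All 69 bases of mt-Ts1 lie opposite the annotated mt-Co1 feature, and mt-Ts1 had 0.699 times its level. Reads were counted by strand, which keeps these overlapping features apart as far as the library preserves strand. The means over all libraries have no error in the deposited table.

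**Figure D1:**
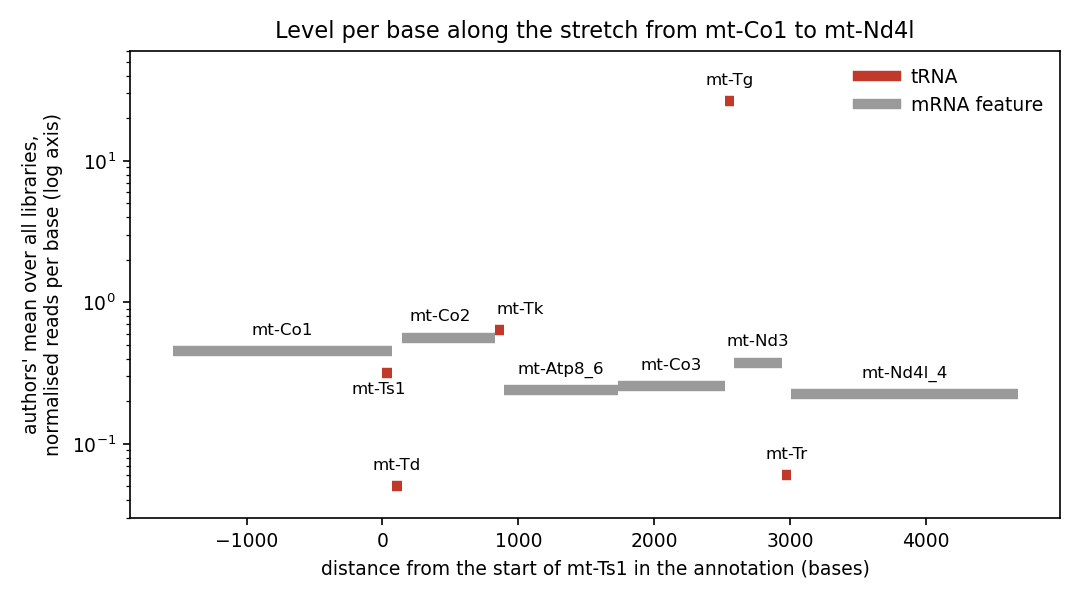
Authors' mean over all 8 libraries in normalised reads per base (log axis) against distance in bases from the start of mt-Ts1, with each bar spanning its feature. The bar of mt-Tg, at 26.4, lies above every mRNA feature, whereas mt-Td at 0.04998 and mt-Tr at 0.0604 lie below all of them.

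All 5 tRNAs had a lower average in *Rnaseh1* knockout hearts than in wild-type hearts, at 6.79% to 26.6% of the wild-type average, with a median of 15.8%. The same direction was seen in all 23 features with averages by genotype, so it was not particular to these tRNAs. Log2 ratios below are of the averages after adding 1 normalised read, which makes the ratio smaller for low features, and their standard errors were propagated from the authors' errors.

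The glycine tRNA mt-Tg averaged 753 ± 198 normalised reads in knockout hearts and 2836 ± 342 in wild-type hearts (± authors' standard error). The difference, knockout minus wild type, was -2083 ± 396, or 5.27 times its standard error, and the log2 ratio was -1.91 ± 0.42. The knockout average was thus 26.6% of the wild-type average, the highest share of the 5, and mt-Tg had the most reads of them in both genotypes.

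The lysine tRNA mt-Tk averaged 5.28 ± 1.36 normalised reads in knockout hearts and 77.7 ± 12.5 in wild-type hearts. This was 6.79% of wild type, the lowest share of the 5, with a difference of -72.4 ± 12.6 (5.74 times its standard error) and a log2 ratio of -3.65 ± 0.39. Without the added read, the log2 ratios of mt-Tg and mt-Tk were -1.91 and -3.88, which differ by 1.97 ± 0.61 if their errors are taken as independent, although both come from the same libraries.

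The serine tRNA mt-Ts1 averaged 6.52 ± 5.56 normalised reads in knockout hearts and 36.9 ± 5.53 in wild-type hearts. Its knockout error was 85.4% of the average, the largest relative error among the 22 tRNAs in knockout hearts. The difference was -30.3 ± 7.85 (3.87 times its standard error) and the log2 ratio was -2.33 ± 1.09. Without the added read, its log2 ratio exceeded that of mt-Tk by 1.38 ± 1.33 and was below that of mt-Tg by 0.59 ± 1.32. If the deposited error is the SD over 4 libraries divided by the square root of their number, 1 knockout library held between 79.7% and 89.0% of the summed knockout reads of mt-Ts1. Without that library the knockout average would be 0.954 to 1.77 normalised reads, or 2.59% to 4.80% of wild type instead of 17.7%. The size of the mt-Ts1 ratio thus rests on 1 library. Large knockout errors were also seen in other tRNAs, at 80.2% of the average in mt-Tc, 74.2% in mt-Ts2 and 70.3% in mt-Ta. The highest library was left out only for the 5 tRNAs, so its effect on the place of mt-Ts1 among the 22 was not determined.

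The aspartate tRNA mt-Td averaged 0.685 ± 0.401 normalised reads in knockout hearts and 6.31 ± 1.52 in wild-type hearts, or 10.9% of wild type. The arginine tRNA mt-Tr averaged 1.12 ± 0.541 in knockout hearts and 7.10 ± 1.58 in wild-type hearts, or 15.8% of wild type. The differences were -5.63 ± 1.57 for mt-Td and -5.98 ± 1.67 for mt-Tr, each 3.58 times its standard error. The knockout averages of 4 libraries come to sums of 2.74 normalised reads for mt-Td and 4.48 for mt-Tr, so the size of either ratio rests on very few reads. On the same reading of the error, leaving out the highest knockout library would put mt-Td at 4.51% to 7.14% and mt-Tr at 8.15% to 12.1% of wild type. For mt-Td the log2 ratio was -2.12 ± 0.46 with 1 added read and -3.20 ± 0.91 with none, and for mt-Tr it was -1.93 ± 0.46 and -2.66 ± 0.77.

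**Figure D2:**
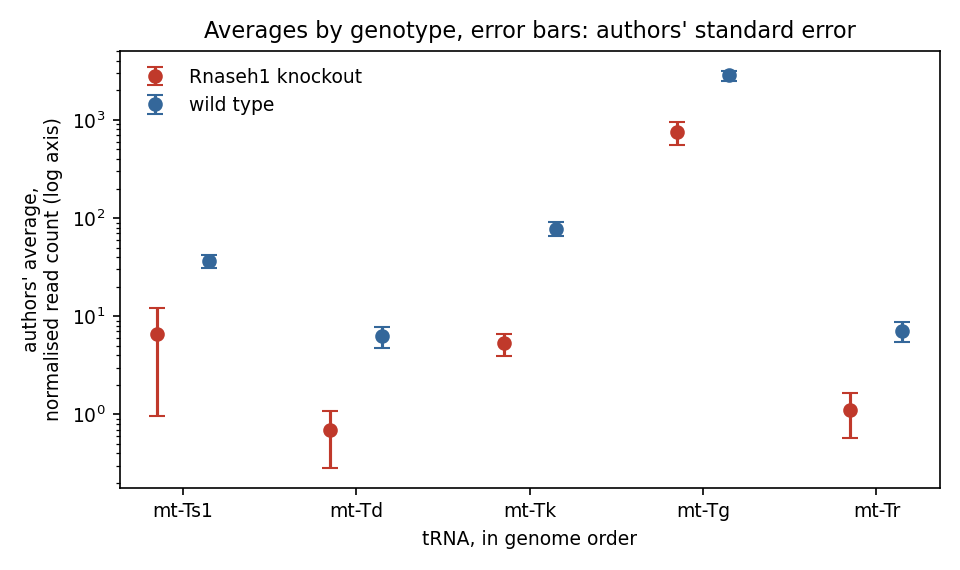
Authors' average per genotype in normalised reads (log axis) for each tRNA in genome order, with *Rnaseh1* knockout (red) left of wild type (blue) and bars for the authors' standard error. Every knockout point is below its wild-type point and no pair of error bars overlaps, while the levels span from 0.685 (mt-Td, knockout) to 2836 (mt-Tg, wild type).

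The order of the levels per base was mt-Tg, mt-Ts1, mt-Tk, mt-Tr and mt-Td in knockout hearts (11.1, 0.0945, 0.0812, 0.0165 and 0.00979 normalised reads per base). In wild-type hearts it was mt-Tg, mt-Tk, mt-Ts1, mt-Tr and mt-Td (41.7, 1.20, 0.534, 0.104 and 0.0902). In both genotypes mt-Tg stood apart, and its difference from mt-Tk was 3.77 times its standard error in knockout hearts and 8.04 times in wild-type hearts. The exchange of mt-Ts1 and mt-Tk was within error in knockout hearts, where they differed by 0.159 standard errors, whereas mt-Tk exceeded mt-Ts1 by 3.17 standard errors in wild-type hearts. mt-Tr and mt-Td did not differ beyond the standard error of their difference in either genotype (0.680 standard errors in knockout hearts and 0.447 in wild-type hearts). mt-Ts1 and mt-Tr differed by 0.963 standard errors in knockout hearts, against 5.15 in wild-type hearts.

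Because mt-Tg held nearly all reads of the group, the sum over the 5 tRNAs followed that tRNA. The sum of the averages was 767 in knockout hearts and 2964 in wild-type hearts (25.9% of wild type), of which mt-Tg held 98.2% in knockout hearts and 95.7% in wild-type hearts. Without mt-Tg the sums were 13.6 in knockout hearts and 128 in wild-type hearts, or 10.6% of wild type. Of the summed averages of all 22 mitochondrial tRNAs, mt-Tg took 12.97% in knockout hearts and 9.80% in wild-type hearts, while the other 4 together took 0.234% in knockout hearts and 0.442% in wild-type hearts.

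The 5 tRNAs were next compared with the 17 other mitochondrial tRNAs. The median log2 ratio was -2.12 over the 5 tRNAs and -3.31 over the 17 others, whose ratios ran from -5.88 (mt-Ty) to -0.64 (mt-Tv, the valine tRNA between the rRNAs). Counted from the least reduced of the 22, mt-Tg ranked 2, mt-Tr 3, mt-Td 4, mt-Ts1 6 and mt-Tk 14. Without the added read, mt-Tr ranked 9 and mt-Td 11, while mt-Tg and mt-Ts1 kept ranks 2 and 6 and mt-Tk was at 13. The medians were then -2.66 over the 5 and -3.92 over the 17 others. The difference between the genotypes was more than 3 times its standard error in all 5 and in 16 of the 17 others, the exception being mt-Tv at 1.50 times. With 5 chosen genes and no test, these ranks and medians are a description.

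By strand, the 14 heavy-strand tRNAs had a median log2 ratio of -2.96 and the 8 light-strand tRNAs one of -3.11. Without the added read the order turned, with medians of -3.54 for the heavy strand and -3.30 for the light strand. The 4 heavy-strand tRNAs of this stretch had a median of -2.03 with the added read and -2.93 without it. mt-Ts1 lay near the top of the light-strand range, which ran from -5.88 to -2.25. On the reading of the error given above, the size of its ratio rests on 1 knockout library. The other light-strand tRNAs were not examined in that way, so its place among them is uncertain. The other serine tRNA, mt-Ts2, is transcribed from the opposite strand at a far higher mean of 3685 normalised reads. Its averages were 1189 ± 883 in knockout hearts and 6180 ± 955 in wild-type hearts, or 19.2% of wild type beside the 17.7% of mt-Ts1. Its log2 ratio was -2.38 ± 1.09 beside the -2.33 ± 1.09 of mt-Ts1. The knockout errors were 74.2% of the average for mt-Ts2 and 85.4% for mt-Ts1, so the closeness of these values cannot be judged.

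**Figure D3:**
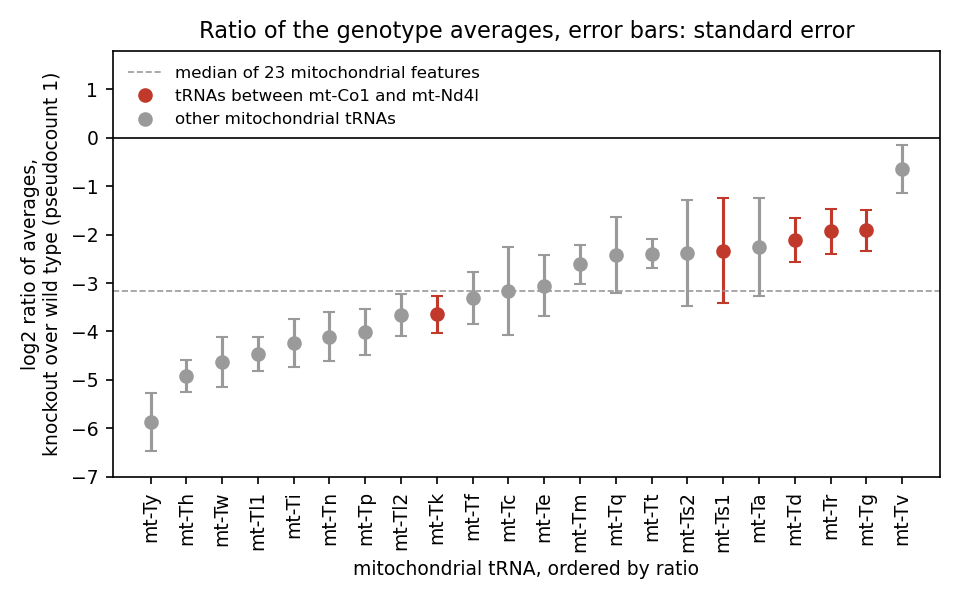
Log2 ratio of the authors' averages, knockout over wild type with 1 normalised read added, for the 22 mitochondrial tRNAs in order of ratio, with bars for the standard error and a dashed line at the median of 23 features (-3.17). The red points of mt-Tg, mt-Tr, mt-Td and mt-Ts1 lie above the line (-1.91 to -2.33), and that of mt-Tk lies below it (-3.65).

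Some directions also depended on what the tRNAs were measured against. Relative to the median of the 23 mitochondrial features, the log2 ratio was 1.26 ± 0.42 in mt-Tg, 1.23 ± 0.46 in mt-Tr, 1.05 ± 0.46 in mt-Td, 0.83 ± 1.09 in mt-Ts1 and -0.48 ± 0.39 in mt-Tk, where the errors are those of the tRNA alone. Without the added read it was 1.61 in mt-Tg, 0.86 in mt-Tr, 0.32 in mt-Td, 1.02 in mt-Ts1 and -0.36 in mt-Tk, and those of mt-Td and mt-Ts1 were smaller than their errors (0.91 and 1.25). The summed averages of the 22 tRNAs and 7S RNA were 5908 in knockout hearts and 35060 in wild-type hearts, or 16.9% of wild type. Relative to that sum, without the added read, the log2 ratio was 0.66 ± 0.42 in mt-Tg, 0.070 ± 1.25 in mt-Ts1, -0.10 ± 0.77 in mt-Tr, -0.63 ± 0.91 in mt-Td and -1.31 ± 0.44 in mt-Tk. These errors are again those of the tRNA alone and leave out the error of the sum. As a share of these features, mt-Tg was higher and mt-Tk lower in knockout hearts, each by more than that error. The values of the other 3 lay within theirs. The knockout sum includes mt-Tv at 2853 ± 893, mt-Ts2 at 1189 ± 883 and mt-Tg itself. Whether the higher share of mt-Tg exceeds the full error was therefore not determined. With mt-Tv left out of the sum, mt-Tg was at 1.41 with and without the added read. On that scale mt-Tk was at -0.56 without the added read and at -0.32 with it, the latter within its error of 0.39. As normalised reads, the averages of all 5 were lower in knockout hearts. In bulk samples, fewer heart muscle cells and less RNA per cell cannot be told apart.

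The features nearest in authors' mean, by the distance of log10 means over all libraries, were the threonine tRNA mt-Tt (23.3) and the cysteine tRNA mt-Tc (20.0) for mt-Ts1, mt-Tl2 (37.5) and mt-Nd6 (32.0) for mt-Tk, and mt-Rnr1 (1843) and mt-Tq (1337) for mt-Tg. mt-Tr and mt-Td were nearest to each other, followed by the phenylalanine tRNA mt-Tf (9.86). In knockout hearts mt-Tl2 was at 6.61% of wild type beside 6.79% for mt-Tk. mt-Tt was at 17.0% and mt-Tc at 8.72% beside 17.7% for mt-Ts1. mt-Tq was at 18.7% beside 26.6% for mt-Tg, with log2 ratios of -2.42 ± 0.78 for mt-Tq and -1.91 ± 0.42 for mt-Tg. mt-Tf was at 5.25% beside 10.9% for mt-Td and 15.8% for mt-Tr. The log2 ratio of mt-Tr exceeded that of mt-Tf by 1.59 ± 1.13 without the added read.

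A nuclear copy of this stretch could share reads with the tRNAs. On chromosome 1 of GRCm38 (24611535 to 24616197), 7 pseudogenes run in a row whose annotated sequences were 98.8% to 100% identical to mt-Co1, mt-Co2, mt-Atp6, mt-Co3, mt-Nd3, mt-Nd4l and mt-Nd4. All 7 were listed with a mean of 0, whereas mt-Co2 and mt-Co3, each 100% identical to its copy over the aligned bases, had means of 388 and 200. How the values of 0 arose was not tested. The gaps between them, where copies of the tRNAs would lie, hold no annotated gene, and their sequence was not analysed here. The aligner reports 1 place for a read with several equal matches, so reads from a copy and from mtDNA cannot be told apart where the sequences are identical, and the levels of the 5 tRNAs are uncertain to that extent.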

How the data were processed

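Short RNA from mouse hearts was sequenced in 8 libraries, 4 per genotype. Per the study, Bowtie2 (2.3.4.1, default settings) placed the single-end reads on mm10. The authors obtained strand-specific read counts from featureCounts (1.6.3), using Ensembl GRCm38 annotation (release 94) with in-house mitochondrial gene models, and size factors from DESeq2 (1.18.1, under R 3.5.1). The authors deposited a mean per feature over all libraries, a signal made of read counts divided by size factors, and, below a second sheet, averages and standard errors per genotype for 23 mitochondrial features. The mean of both genotype averages equalled the authors' mean to within 5.68e-12. Columns of the authors' own comparison (log2 fold change, its error, the Wald statistic, p-values and a percentage of wild type) were not used. The names of 8 columns of single libraries match no sample, so they were not used.

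From the deposited averages, ratios, differences and propagated errors were calculated in Python (3.11.15, with pandas 2.3.3 and numpy 2.4.6), with a pseudocount of 1 for log2 ratios. The error formulas were tested on simulated normal values with smaller relative errors than those of the 5 tRNAs. Their knockout errors were 25.8% to 85.4% of the average, so the test does not cover the log2 errors given for them. A planned limma test on features with a mean of at least 10 could not be run. The text names the 5 tRNAs, the flanking mRNA genes, mt-Ts2 and, of the 3 mitochondrial features nearest to each tRNA in mean, the closest and the next closest. mt-Tv and mt-Ty were named after their values were seen. Heavy-strand and light-strand tRNA lists came from gene positions. Members and lists were chosen with earlier results of these data known. The study describes 4 animals per group.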

Additional observations from a re-analysis of the deposited data

How the results depend on the processing

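Adding the same number to both averages cannot turn the direction of their ratio, so other pseudocounts bear only on its size. With no pseudocount the log2 ratios were -3.20 for mt-Td and -2.66 for mt-Tr, and with a pseudocount of 10 they were -0.61 for mt-Td, -2.52 for mt-Tk and -0.62 for mt-Tr. The value of mt-Td relative to the median of the 23 features was 0.32 with no pseudocount. Scaling to the sum of the 22 tRNAs and 7S RNA turned mt-Tg and, within its error, mt-Ts1 with and without a pseudocount. The error of the sum was left out, so whether mt-Tg turned beyond the full error was not determined. On that scale the direction of mt-Td and mt-Tr depended on the pseudocount. In the order mt-Ts1, mt-Td, mt-Tk, mt-Tg and mt-Tr, the log2 ratios relative to that sum were 0.070, -0.63, -1.31, 0.66 and -0.10 (median -0.10) with no pseudocount, and 0.24, 0.45, -1.08, 0.66 and 0.64 (median 0.45) with 1 read added to the tRNA and none to the sum, which raises low features. Without mt-Tv, which held 49.1% of the tRNA sum in knockout hearts and 15.4% in wild-type hearts, they were 0.82, 0.12, -0.56, 1.41 and 0.66 (median 0.66) with no pseudocount, and 0.99, 1.21, -0.32, 1.41 and 1.39 (median 1.21) with the added read. The scalings with no pseudocount or without mt-Tv and the averages without the highest library were chosen after seeing the data. A pseudocount of 0.5, the median over tRNAs only and levels without length moved no value beyond its error. No paired analysis was possible because the single-library columns carry no genotype or replicate number. For the same reason the test with and without a filter on low values, the fits leaving out each named library and the scaling to mitochondrial mRNAs were not run. Depth limits mt-Td and mt-Tr most.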
